A study of Mus musculus with 8 samples.

Results

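The genes described here encode 9 enzymes and enzyme subunits of the tricarboxylic acid (TCA) cycle: Cs, Idh2, Idh3a, Idh3b, Ogdh, Dlst, Suclg1, Fh1 and Mdh2. They were chosen by name as cycle enzymes, by a rule that uses no measured value but with earlier results of these data known. Further subunits of the cycle are described as a separate list below. Every probe set of each of the 9 genes was taken. This gave 22 probe sets of the 45037 on the array other than controls, and all 9 genes were among the 13647 genes tested. Expression was measured on 8 one-colour Affymetrix arrays of mouse embryonic fibroblasts, a culture of connective tissue cells grown from embryos, here isolated at stage E14.5. The strain is given as C57BL6/J. Wild-type cells (Hif-p4h-1+/+) and knockout cells (Hif-p4h-1-/-) were each cultured in normoxia and in hypoxia, which makes 4 groups of 2 arrays, and 1 array of each group carries the mark of a second set in the labels. Hif-p4h-1 is the oxygen-dependent prolyl hydroxylase encoded by Egln2. The sources used here do not give the oxygen level, the duration of the hypoxia, the number of embryos behind an array or any pooling.

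The TCA cycle oxidises the acetyl group of acetyl-CoA in the mitochondrial matrix and passes the electrons to the respiratory chain. Low oxygen is known to turn many cells from respiration towards glycolysis through hypoxia-inducible factor (HIF), which among other targets activates pyruvate dehydrogenase kinase 1, an enzyme that limits the entry of pyruvate into the cycle. Intermediates of the cycle also matter to oxygen sensing itself, because the HIF prolyl hydroxylases use 2-oxoglutarate as a co-substrate and are inhibited by succinate and fumarate.

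The labelled state of the cells was checked first. All 10 hypoxia check genes were called higher in wild type and in knockout, where 7.54% and 4.98% of all tested genes were. These check genes were chosen with earlier results of these data known. Pdk1 rose by 3.35 ± 0.070 (SE) on the log2 scale over both genotypes. Egln2 was lower in the knockout in normoxia by 0.785 ± 0.089 (limma adjusted p = 0.0489). The wild-type arrays read 8.84 and 9.07 there and the knockout arrays 8 and 8.34. In hypoxia the difference of -0.285 had an adjusted p of 0.725. Within the knockout, Egln2 rose with hypoxia by 0.585 ± 0.089 (adjusted p = 0.00919). The call in normoxia was narrow: without the set term, or with the set as a random block, no gene passed that comparison. All 10 fibroblast markers were above the filter on low levels. The 2 first-set wild-type arrays stood apart: Myog, a muscle regulator, read 8.04 and 7.96 there and 3.48 to 4.33 on the other 6 arrays, and Tyrobp, a macrophage and leukocyte adaptor, read 8.35 and 7.71 against 5.20 to 6.57. The muscle markers Myh3, Actc1, Tnnt1 and Tnnc1 were also highest there, but Acta1 and Ckm were not. Acta1 read 9.65 and 9.21 there against 9.1 to 11.54 on the other 6 arrays, and Ckm 5.09 and 5.33 against 5.09 to 5.41. The counts of called cycle enzymes are also given without the first-set wild-type arrays below.

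Promoter sequence is shown for the members whose window holds the core of the HIF binding motif, searched as ACGTG and as GCGTG on both strands, so that the responses below can be set beside it. The windows are the 250 bases before the RefSeq transcription start (build GRCm38.p6), read 5′ to 3′ in the direction of transcription, with the HIF core in capitals (CACGC is GCGTG on the other strand). Ogdh, which has several annotated starts, holds a core in 6 of its 6 windows and is not printed. Several of these windows overlap and share the same cores.
Idh2: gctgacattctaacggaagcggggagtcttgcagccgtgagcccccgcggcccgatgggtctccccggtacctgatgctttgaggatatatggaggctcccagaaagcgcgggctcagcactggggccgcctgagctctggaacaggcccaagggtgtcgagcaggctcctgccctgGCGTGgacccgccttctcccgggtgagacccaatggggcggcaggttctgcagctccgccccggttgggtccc
Suclg1: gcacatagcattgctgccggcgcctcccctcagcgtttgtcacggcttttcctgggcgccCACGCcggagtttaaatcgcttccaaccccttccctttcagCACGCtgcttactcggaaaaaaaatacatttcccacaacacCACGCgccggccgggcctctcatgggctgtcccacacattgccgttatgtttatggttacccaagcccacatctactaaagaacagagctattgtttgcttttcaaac
Fh1: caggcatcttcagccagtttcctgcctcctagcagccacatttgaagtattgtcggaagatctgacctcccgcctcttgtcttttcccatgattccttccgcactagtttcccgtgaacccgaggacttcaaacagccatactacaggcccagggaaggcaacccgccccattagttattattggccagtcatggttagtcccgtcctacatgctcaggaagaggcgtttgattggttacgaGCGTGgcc
Mdh2: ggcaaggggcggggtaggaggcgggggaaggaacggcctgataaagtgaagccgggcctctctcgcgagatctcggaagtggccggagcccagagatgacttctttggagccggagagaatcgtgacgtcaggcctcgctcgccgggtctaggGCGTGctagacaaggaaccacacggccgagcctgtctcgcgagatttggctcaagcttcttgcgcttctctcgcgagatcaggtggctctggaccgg
The Idh2 window lies at chr7:80115351-80115600 on the minus strand and its core begins 73 bases before the start. The Suclg1 window, chr6:73248255-73248504 on the plus strand, holds 3 cores that begin 190, 149 and 108 bases before the start. The Fh1 window, chr1:175625636-175625885 on the minus strand, has a core 8 bases before the start, and the Mdh2 window, chr5:135778399-135778648 on the plus strand, has one 97 bases before it. A window was found for 8 of the 9 members, all but Idh3a, which was therefore not searched. Of these 8 members, 5 hold a core in either form, against 38.6% of all 32851 windows. The form ACGTG, which can overlap its own reverse in CACGTG, occurs in 16.6% of all windows and among members in Ogdh alone. Of other motifs searched on both strands, CCAAT was held by 5 of the 8 members and 33.8% of all windows, the GC box GGGCGG by 6 of 8 and 32.7%, and neither AAGGTCA (4.08% of windows), CCGGAAG (6.91%) nor the NRF1 motif (3.74%) by any member. Ogdh counts here by any of its 6 windows, and a match describes these letters only.

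Hypoxia was accompanied by lower transcript levels of most of the cycle enzymes. In wild type 5 of the 9 genes fell (Cs, Idh2, Idh3a, Dlst and Suclg1) and none rose, where 16.4% of all tested genes were called, 8.85% lower and 7.54% higher. In knockout 2 of the 9 fell (Idh2 and Idh3a) and none rose, against 10.1% of all genes called, 5.13% lower and 4.98% higher. Over both genotypes 7 of 9 fell, all but Ogdh and Mdh2, against 28.7% of all genes called, 15.2% lower and 13.6% higher. The 9 genes had a median log2 difference of -0.195 in wild type, where that of all genes was -0.015, and of -0.18 in knockout, where that of all genes was 0.02. A gene is called changed where the Benjamini-Hochberg adjusted p of the limma fit over all tested genes was under 0.05, and the fit took the set as a term. Without that term none of the 9 was called in any comparison. In wild type the count was 4 without any one knockout array, 1 without either normoxic array or the second-set hypoxic array and 0 without the first-set hypoxic array, and in knockout it was 0 without either normoxic array or the second-set hypoxic array, 1 without the first-set hypoxic array and 3 without either wild-type normoxic array. Over both genotypes it was 4 without the second-set knockout normoxic array. Leaving out both first-set wild-type arrays, a choice made after seeing the data, left 3 genes called over both genotypes (Idh2, Idh3a and Dlst) and 0 within either genotype.

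**Figure D1:**
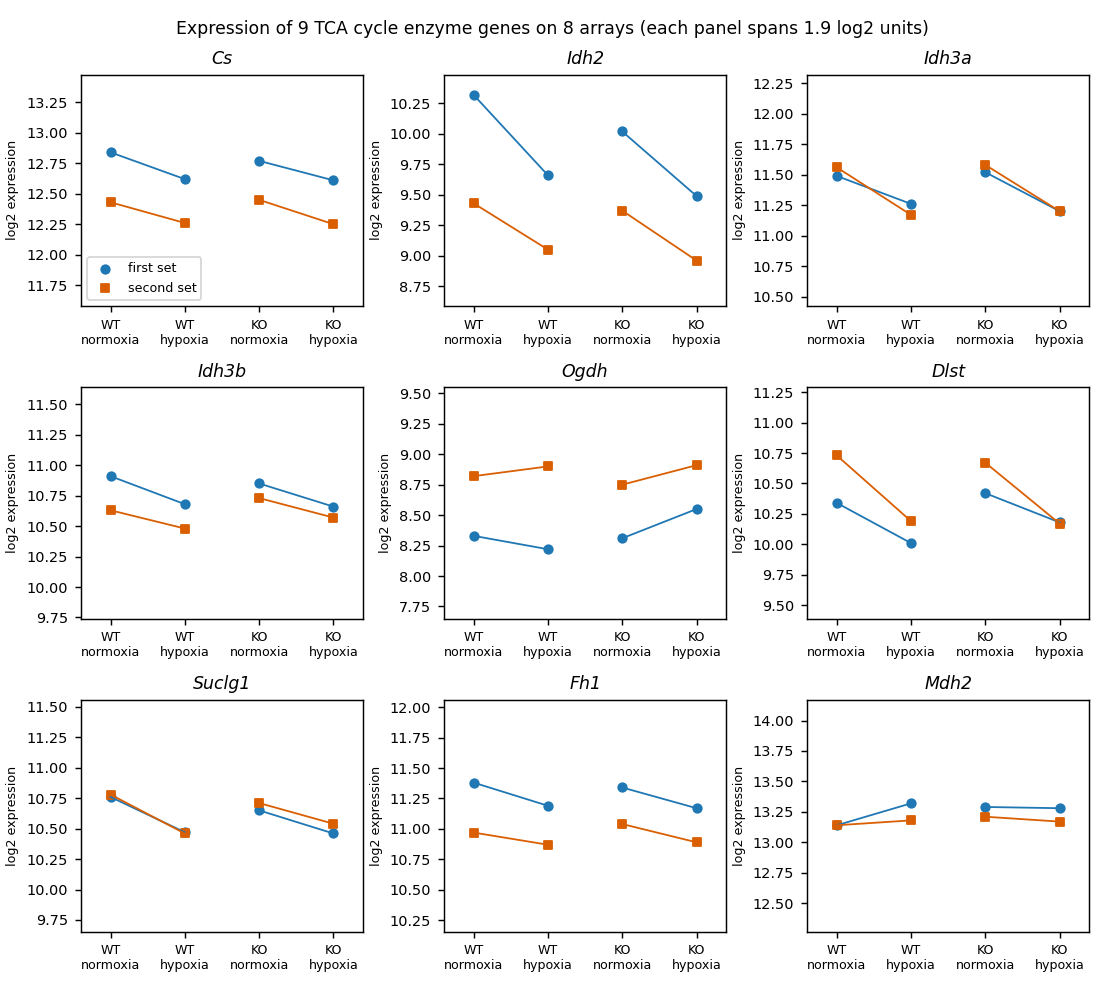
Log2 expression of the 9 genes on each of the 8 arrays, 1 panel per gene, with lines joining normoxia and hypoxia of the same genotype and set (circles first set, squares second set). Every line of Cs, Idh2, Idh3a, Idh3b, Dlst, Suclg1 and Fh1 slopes down, while Mdh2 stays within 13.14 to 13.32.

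For most members the direction was the same in both sets. Within each genotype and set, 7 of the 9 genes were lower in hypoxia in 4 of 4 pairs of arrays, which 24.5% of all genes were. The exceptions were Ogdh and Mdh2. Whether the arrays of 1 group stem from separate embryos or cultures is not in the labels, and the spread behind the p-values could be technical. In bulk RNA, fewer cells of a type and less RNA per cell cannot be told apart.

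Citrate synthase, encoded by Cs, joins acetyl-CoA to oxaloacetate and opens the cycle. Its most highly expressed probe set, 1450667_a_at, read 12.84 and 12.43 in wild-type normoxia (first and second set) and 12.62 and 12.26 in wild-type hypoxia. The normoxic knockout arrays read 12.77 and 12.45, the hypoxic ones 12.61 and 12.25. Each hypoxic array was below the normoxic array of its own set, although the sets differed by more than the oxygen conditions did. Cs fell over both genotypes by 0.19 ± 0.039 (SE, adjusted p = 0.00928), to 0.878 of the normoxic level. The other probe sets of Cs did not follow. Probe set 1422578_at was higher in hypoxia in 4 of 4 pairs by 0.155 on average (adjusted p = 0.0804 over all probe sets), 1422577_at differed by 0.035, and the mean of all 3 probe sets moved by 0.000833 (adjusted p = 0.992).

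The isocitrate dehydrogenases turn isocitrate into 2-oxoglutarate. Idh2 encodes the mitochondrial enzyme that reduces NADP, and it had the largest response of the 9 genes. Idh2 read 10.32 and 9.43 in wild-type normoxia and 9.66 and 9.05 in wild-type hypoxia. The normoxic knockout arrays read 10.02 and 9.37, the hypoxic ones 9.49 and 8.96. Both conditions overlapped across sets, but within each set every hypoxic array was below both normoxic arrays. In wild type Idh2 fell by 0.52 ± 0.099, with an adjusted p of 0.0123. The fall in knockout was 0.47 ± 0.099, with an adjusted p of 0.0248, and over both genotypes hypoxic cells held 0.71 of the normoxic level. Its promoter carries the single GCGTG core shown above. A second, dimmer probe set, 1453601_at, ranged from 4.90 to 5.73 and differed by -0.095 over both genotypes (adjusted p = 0.709 over all probe sets).

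Idh3a and Idh3b encode the catalytic alpha and the beta subunit of the NAD-dependent enzyme. Idh3a read 11.49 and 11.56 in wild-type normoxia, 11.52 and 11.58 in knockout normoxia, 11.26 and 11.17 in wild-type hypoxia and 11.2 on both knockout hypoxic arrays. All 4 hypoxic arrays lay below all 4 normoxic ones. Idh3a fell by 0.31 ± 0.068 in wild-type cells (adjusted p = 0.0192), and its fall of 0.35 ± 0.068 in knockout cells also passed (adjusted p = 0.0194). The 3 other Idh3a probe sets, with means between 5.38 and 7.67, differed by -0.075, -0.06 and 0.075 over both genotypes and none was called. With the mean of its 4 probe sets, Idh3a differed by -0.097 over both genotypes (adjusted p = 0.274), by -0.129 in wild type and by -0.065 in knockout, and was called in none of them. Probe set 1447701_x_at carries the platform's mark for probes that can bind other transcripts, and 1422501_s_at the mark for probes shared between transcripts.

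Idh3b read between 10.63 and 10.91 in normoxia and between 10.48 and 10.68 in hypoxia, with a fall of 0.15 to 0.23 in each of the 4 pairs. It fell over both genotypes by 0.18 ± 0.052 (adjusted p = 0.0323) and passed in neither genotype alone (adjusted p = 0.12 and 0.177). Its probe set 1418886_s_at, which reads 10.40 to 10.56 in hypoxia and 10.72 to 10.78 in normoxia without overlap, fell by 0.265 ± 0.055 (adjusted p = 0.0135 over all probe sets). The dimmest one, 1441271_at, differed by -0.145 (adjusted p = 0.461). With 1 array left out at a time, Idh3b passed over both genotypes in 1 of 8 fits.

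The 2-oxoglutarate dehydrogenase complex turns 2-oxoglutarate into succinyl-CoA. Ogdh encodes its E1 subunit and Dlst its E2 subunit, the dihydrolipoamide succinyltransferase core. Ogdh read 8.33 and 8.82 in wild-type normoxia, 8.22 and 8.9 in wild-type hypoxia, 8.31 and 8.75 in knockout normoxia and 8.55 and 8.91 in knockout hypoxia. The oxygen conditions overlapped, and the second set was higher in all 4 groups by 0.36 to 0.68. The response was -0.015 ± 0.10 in wild type and 0.2 ± 0.10 in knockout (adjusted p = 0.948 and 0.26). Another Ogdh probe set, 1445632_at, was higher in hypoxia in 4 of 4 pairs, by 0.275 over both genotypes (adjusted p = 0.104 over all probe sets).

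Dlst, in contrast, read 10.34 and 10.73 in wild-type normoxia and 10.01 and 10.19 in wild-type hypoxia. The normoxic knockout arrays read 10.42 and 10.67, the hypoxic ones 10.18 and 10.17. All 4 hypoxic arrays were below all 4 normoxic arrays. Dlst fell by 0.435 ± 0.098 in wild type (adjusted p = 0.0213), and in knockout the difference of -0.37 had an adjusted p of 0.0501. A dimmer probe set of Dlst, 1437775_at, had the largest response of the 22. It differed by -1.42 and -0.67 in the wild-type pairs and by -1.57 and -0.63 in the knockout pairs (first and second set), and fell over both genotypes by 1.07 ± 0.23 (adjusted p = 0.0157 over all probe sets). The remaining Dlst probe sets went in opposite directions, with -0.36 for 1430161_at (adjusted p = 0.0803) and 0.17 for 1431011_at (adjusted p = 0.393).

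Suclg1 encodes the alpha subunit shared by the succinyl-CoA ligases, which release succinate. Suclg1 read 10.76 and 10.78 in wild-type normoxia, 10.47 and 10.46 in wild-type hypoxia, 10.65 and 10.71 in knockout normoxia and 10.46 and 10.54 in knockout hypoxia. The 4 hypoxic arrays lay below the 4 normoxic ones, and the sets were close to each other. Suclg1 fell by 0.305 ± 0.067 in wild type (adjusted p = 0.02), and in knockout it differed by -0.18 (adjusted p = 0.132). It was read by 1 probe set, and its promoter holds the 3 CACGC cores shown above.

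Fh1, the mouse gene of fumarate hydratase, had the smallest fall among the 7 genes called over both genotypes. Fh1 read between 10.97 and 11.38 in normoxia and between 10.87 and 11.19 in hypoxia, and the difference within the 4 pairs was between -0.19 and -0.10. It fell over both genotypes by 0.15 ± 0.047 (adjusted p = 0.0415) and passed in neither genotype alone. The same probe set had an adjusted p of 0.0649 when the adjustment ran over all probe sets, and with 1 array left out at a time it passed in 1 of 8 fits.

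Mdh2 encodes mitochondrial malate dehydrogenase, which regenerates oxaloacetate. Mdh2 read 13.14 on both wild-type normoxic arrays, 13.32 and 13.18 in wild-type hypoxia, 13.29 and 13.21 in knockout normoxia and 13.28 and 13.17 in knockout hypoxia. Both wild-type normoxic arrays lay below the other 6, and the other groups overlapped. The response was 0.11 ± 0.056 in wild type (adjusted p = 0.228) and -0.025 ± 0.056 in knockout (adjusted p = 0.832). The second probe set, 1416478_a_at, differed by -0.045 over both genotypes (adjusted p = 0.515 over all probe sets). The Mdh2 promoter holds the 1 GCGTG core shown above, and a part of such cores in any response was not tested.

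**Figure D2:**
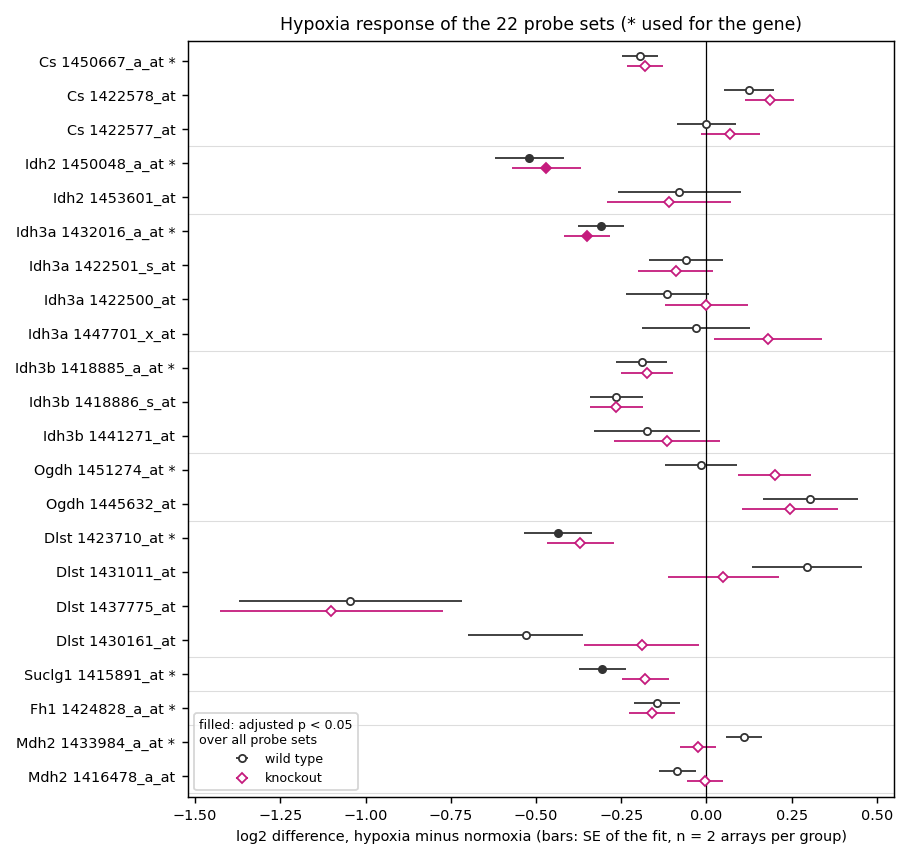
Log2 difference of hypoxia minus normoxia for each of the 22 probe sets in wild type (circles) and knockout (diamonds), with bars of 1 standard error of the fit; filled symbols have an adjusted p under 0.05 over all probe sets, and the starred probe set stands for the gene. Filled symbols are found at Idh2, Idh3a, Dlst and Suclg1, and further probe sets of Cs, Ogdh and Dlst lie on the other side of 0.

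Over all 22 probe sets, with adjustment over the 45037 probe sets of the array, 4 fell in wild type, against 7.29% of all probe sets called and 3.47% lower. In knockout 2 fell, against 4.67% called and 2.49% lower. Over both genotypes 7 fell, from 6 genes, against 15.8% of all probe sets called and 8.31% lower, and none rose. The median of the 22 was -0.12, against 0.0025 for all probe sets, with 15 below 0 and 7 above. With the mean of all probe sets of a gene, Cs and Idh3a were not called over both genotypes. Idh2 kept its call there at -0.295 and was called in neither genotype alone. Dlst stayed close to its value, at -0.42, but its probe sets disagreed. Their responses over both genotypes ran from -1.07 (1437775_at) to 0.17 (1431011_at).

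Loss of Hif-p4h-1 was not accompanied by a called change of any cycle enzyme. In normoxia 0 of 9 genes passed for knockout against wild type, where 0.0366% of all genes did, and the log2 differences ran from -0.18 (Idh2) to 0.11 (Mdh2) with a smallest adjusted p of 0.784. In hypoxia 0 of 9 passed, against 0.0293% of all genes, and the differences ran from -0.13 (Idh2) to 0.17 (Ogdh) with a smallest adjusted p of 0.887. At an unadjusted p under 0.05 the count was 0 of the 9 in both, against 914 and 753 of the 13647 tested genes. With so small a share of all genes, 0 of 9 does not set the members apart. The 95% intervals of the 9 genes reached from -0.408 to 0.239 in normoxia and from -0.358 to 0.406 in hypoxia at their widest. For Cs in normoxia the interval was -0.153 to 0.103. Idh2 alone of the 9 was lower in knockout than in wild type in 4 of 4 pairs of the same set and oxygen condition, which 10.7% of all genes were. It was lower by 0.30 and 0.06 in normoxia and by 0.17 and 0.09 in hypoxia (first and second set), so the larger differences involve the first-set wild-type arrays that stood apart. All 8 tested macrophage and leukocyte markers were below wild type in the knockout, with a median of -1.32 in normoxia and -1.20 in hypoxia, and their part in the Idh2 difference was not tested.

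The response to hypoxia was not shown to differ between genotypes. No tested gene passed the interaction test, the knockout response minus the wild-type response (0% of all genes, 0 of 9 members). An unadjusted p under 0.05 was reached by 329 of the 13647 tested genes and 0 of the 9 members. That does not set the members apart from all genes. The interaction ran from -0.135 (Mdh2) to 0.215 (Ogdh), with 95% intervals of the 9 genes within -0.318 to 0.549. That Cs, Dlst and Suclg1 passed in wild type and not in knockout therefore does not show a difference between the genotypes.

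The sets differed in level for several members. In the second set 4 of the 9 genes were lower in all 4 groups, as 25.2% of all genes were: Idh2 by 0.53 to 0.89, Cs by 0.32 to 0.41, Fh1 by 0.28 to 0.41 and Idh3b by 0.09 to 0.28. Ogdh was higher in all 4 groups, as were 31.8% of all genes. Idh3a differed between sets by -0.09 to 0.07 and Suclg1 by -0.01 to 0.08. The difference between sets thus exceeded the response to hypoxia for Idh2, Cs and Fh1 and stayed below it for Idh3a and Suclg1.

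The members other than Ogdh and Mdh2 also moved together once set means were taken off. Among the 21 pairs of genes other than Ogdh and Mdh2, Pearson's r over the 8 arrays was at least 0.76 and reached 0.985 for Idh3b with Fh1. All 15 pairs that involve Ogdh or Mdh2 were below 0, down to -0.637 for Idh2 with Mdh2. The genes of the 21 pairs were each lower in hypoxia in every pair of arrays. A high r among them was therefore largely set by that shared fall. These values describe 8 arrays that share the oxygen contrast and carry no test.

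**Figure D3:**
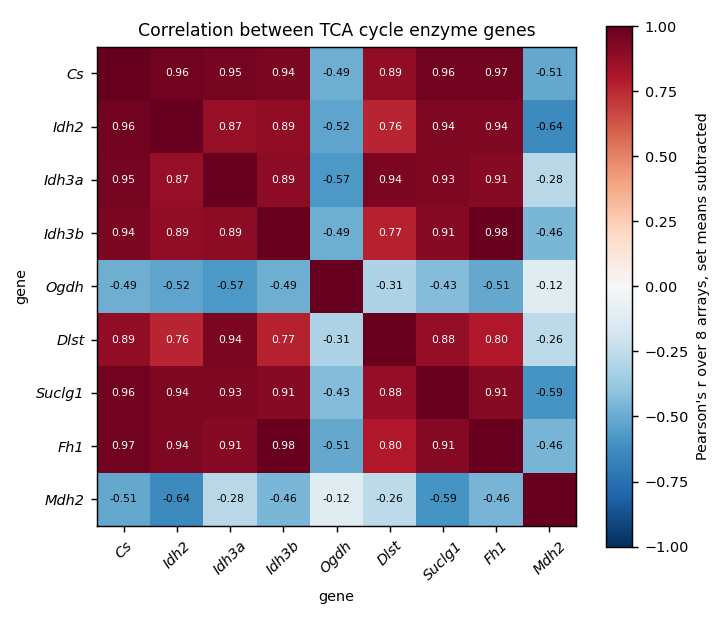
Pearson's r between the 9 genes over 8 arrays after subtracting the mean of each set, coloured from -1 (blue) to 1 (red). The rows of Ogdh and Mdh2 are negative against all other genes, with -0.125 between them, and the remaining pairs are at 0.76 or above.

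Across all tested genes, the profiles most like the mean profile of the 9 members, by the same set-centred r over 8 arrays, were those of Foxred1 (r = 0.998), a complex I assembly factor, Cryz (0.997), a quinone oxidoreductase, Golm1 (0.997), a Golgi membrane protein, Cxcl14 (0.997), a chemokine, and Nr1d2 (0.996), a nuclear receptor of the clock. Foxred1 fell by 1.05 over both genotypes and Cryz by 0.51. The most opposite profiles were those of the nuclear receptor Rora (r = -0.999), Zswim8 (-0.999), the phosphatase Dusp7 (-0.998), the splicing regulator Mbnl1 (-0.997) and the kinase Rock1 (-0.997). Rora rose by 1.17 and Zswim8 by 0.94. The mean profile of the members was mainly the oxygen contrast, and these genes were picked for their r with it. Their fall or rise in hypoxia therefore follows from the choice and shows no particular link to the cycle enzymes.

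The other subunits of the cycle enzymes behaved unevenly. Of 8 tested genes, 3 fell over both genotypes, none rose and 5 did not pass, with a median of -0.12 against 0.0075 for all genes. Of all tested genes 15.2% were called lower and 13.6% higher. Sdha, the flavoprotein of succinate dehydrogenase, read 11.59 and 11.31 in wild-type normoxia, 10.91 and 10.66 in wild-type hypoxia, 11.48 and 11.40 in knockout normoxia and 11.18 and 10.78 in knockout hypoxia. It fell by 0.56 ± 0.059 (adjusted p = 5.3e-04), more than any of the 9 members. Sucla2, the beta subunit of the ADP-forming succinyl-CoA ligase, fell by 0.21 ± 0.045 and Idh3g, the gamma subunit beside Idh3a and Idh3b, by 0.19 ± 0.050. Suclg2, Sdhb, Sdhc, Sdhd and Dld, the E3 subunit that serves Ogdh and Dlst, did not pass. Suclg2 came closest, at -0.17 (adjusted p = 0.0849). Suclg2 and Sdhb were lower in hypoxia in 4 of 4 pairs, as 24.5% of all genes were, and Sdhc in 0 of 4. Of 4 assembly factors of succinate dehydrogenase, Sdhaf1 fell by 0.27 ± 0.082 and the others did not pass.

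At the entry to the cycle, 2 of 7 tested genes of pyruvate import and oxidation fell and 1 rose over both genotypes. The shares of all genes to set beside the counts in this paragraph are 15.2% lower and 13.6% higher. Pdha1 and Pdhb, the E1 subunits of pyruvate dehydrogenase, fell by 0.39 ± 0.043 and 0.32 ± 0.047, and Pdp2, a phosphatase that reactivates the complex, rose by 0.695 ± 0.15. Of 3 tested pyruvate dehydrogenase kinases Pdk1 and Pdk3 rose, the latter by 0.24 ± 0.076. Of 7 genes for refilling the cycle and for glutamine use, Got2, the mitochondrial aspartate aminotransferase, fell by 0.34 ± 0.050 and Pck2 by 0.19 ± 0.057. None of 3 tested genes for attaching lipoate, the cofactor of Dlst, passed.

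Outside the matrix, 1 of 6 cytosolic counterparts fell and 1 rose over both genotypes. That is close to the shares of all genes, 15.2% lower and 13.6% higher. Got1 fell by 0.415 ± 0.066, and Acly, which cleaves exported citrate, rose by 0.34 ± 0.072, while Idh1 and Mdh1 differed by -0.08 and -0.02 (adjusted p = 0.547 and 0.787). Of 5 tested carriers, the aspartate-glutamate carriers moved in opposite directions: Slc25a12 fell by 0.41 ± 0.073 and Slc25a13 rose by 0.635 ± 0.069. Slc25a10, the dicarboxylate carrier, rose by 0.31 ± 0.082.

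General mitochondrial genes were compared for reference. Of 13 tested genes for import, folding, proteolysis and the outer membrane channel, 7 fell and 1 rose over both genotypes, with a median of -0.17. Among all tested genes 15.2% were called lower and 13.6% higher. The chaperones Hspa9 and Hspd1 fell by 0.26 ± 0.047 each and Trap1 by 0.32 ± 0.061, while the matrix protease Lonp1 rose by 0.65 ± 0.055. Of 9 tested regulators of mitochondrial biogenesis, Nrf1 fell by 0.34 ± 0.11 and Gabpb1 by 0.26 ± 0.078, and Myc rose by 0.50 ± 0.057. Bnip3, a receptor for mitochondrial removal, rose by 3.50 ± 0.060. These counts are descriptions of lists chosen with earlier results of these data known.

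**Figure D4:**
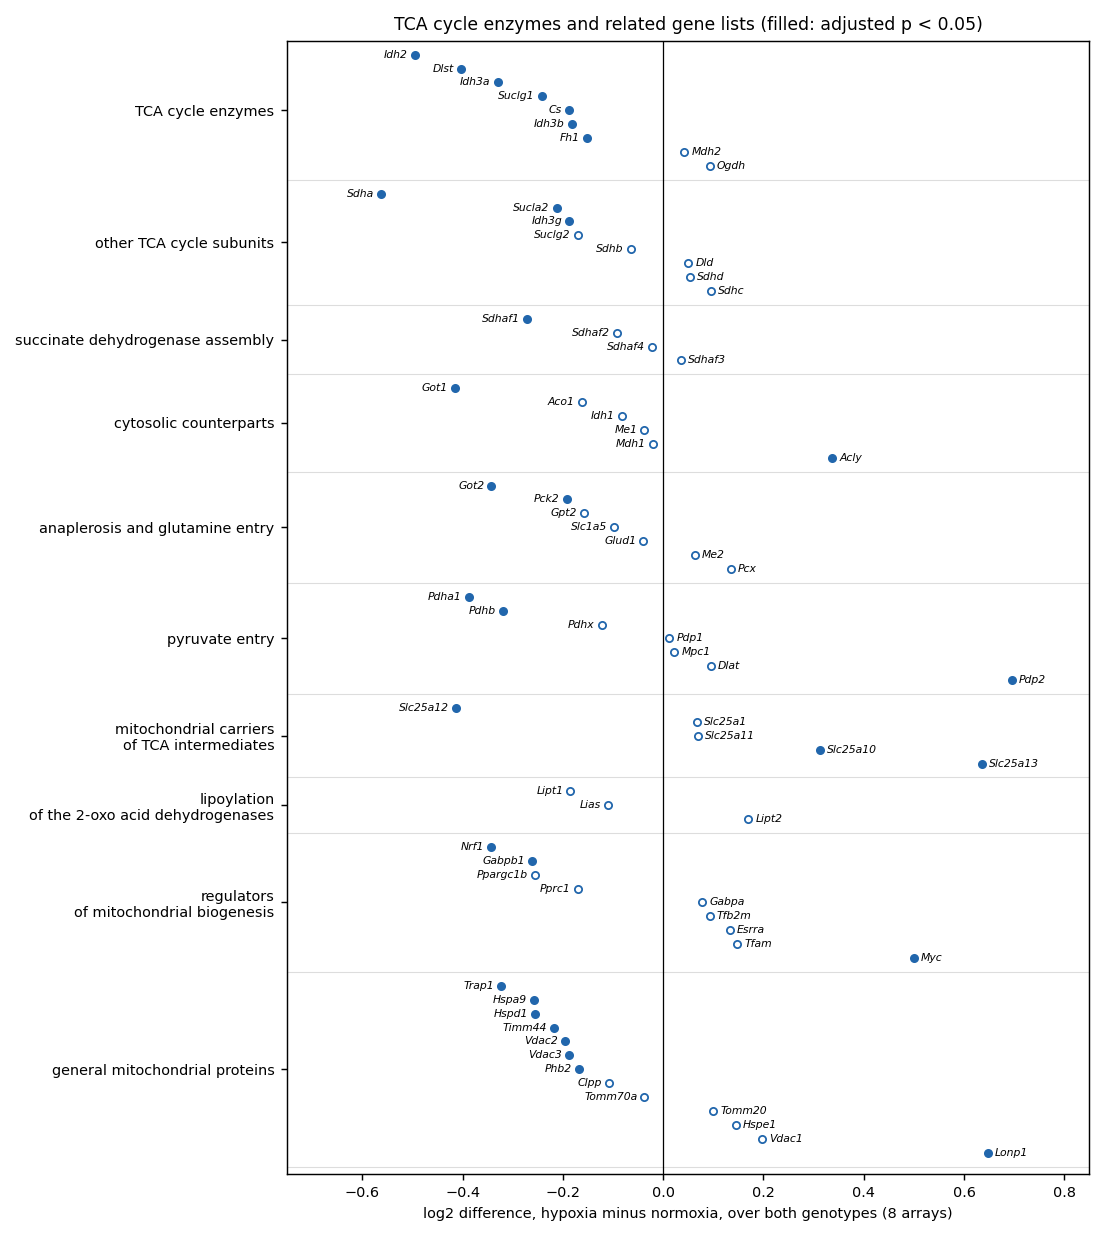
Log2 difference of hypoxia minus normoxia over both genotypes for the 9 TCA cycle enzymes and 9 related gene lists, 1 point per tested gene, filled where the adjusted p over all genes is under 0.05. The 9 enzymes run from -0.495 for Idh2 to 0.09 for Ogdh, and the general mitochondrial genes from -0.32 for Trap1 to 0.65 for Lonp1.

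Summed markers of other cells and measures of RNA quality moved with hypoxia too. The summed level of the 10 macrophage and leukocyte markers was lower in hypoxia in 4 of 4 pairs, by 0.0325 to 0.432, and lay between 10.18 and 11.65 in wild-type normoxia, 9.95 and 11.22 in wild-type hypoxia, 9.23 and 9.98 in knockout normoxia and 9.06 and 9.94 in knockout hypoxia. Of these markers 8 of 10 were above the filter on low levels, with Itgam and Aif1 below it. Single markers differed in direction: Lyz2 fell over both genotypes by 0.36 ± 0.070, Cd14 rose by 0.43 ± 0.13, and Adgre1 was higher in 4 of 4 pairs without passing. The summed level of the 8 skeletal muscle markers, with Myod1 alone below the filter, was lower in 4 of 4 pairs by 0.009 to 0.468, and lay between 11.58 and 11.74, 11.11 and 11.50, 9.74 and 11.70, and 9.73 and 11.28 in the same order of groups. Of the 7 tested muscle markers Acta1 alone passed, with a fall of 0.395 ± 0.096, and 5 were above 0 with a median of 0.10. The summed level of the 10 fibroblast markers was lower in 4 of 4 pairs by 0.0336 to 0.131, and none of them was called. Over both genotypes 15.2% of all tested genes were called lower and 13.6% higher. Of 6 endothelial markers Pecam1, Cdh5, Emcn and Tie1 were below the filter, of 5 epithelial markers Cdh1 was, and so were both erythroid markers on the array. The log2 difference between 3′ and 5′ control probe sets was higher in hypoxia in 4 of 4 pairs for Actb, by 0.10 to 0.17, and for Gapdh, by 0.04 to 0.33. The part of these shifts in the fall of the cycle enzymes was not tested.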

How the data were processed

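Biotin-labelled cRNA from 5 ug of total RNA was hybridised to 1 Affymetrix array per sample, per the labels. The deposited log2 values, 1 per probe set and array, come from RMA per the submitters' processing notes, with no version given. RMA equalises the arrays' distributions, which hides any shift common to the whole transcriptome. Array medians lay between 5.01 and 5.12. Joint normalization of the 8 arrays is not stated in the labels. No further normalization was applied.

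Of 45101 probe sets, 64 controls were left out. Probe sets with exactly 1 symbol in the platform annotation (34945) were named, those with several (932) were not used, and 9160 were not listed. Symbols were updated through RefSeq (GRCm38.p6). Promoter sequences are RefSeq's. Of 18193 genes, the probe set with the highest mean stood for each, and genes below the 25th percentile of mean level were left out, which left 13647. A second fit without that filter covered all probe sets other than controls.

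In R 4.3.3, limma 3.58.1 fitted all 8 arrays with 4 group means plus a term for the set (3 residual degrees of freedom), with eBayes and a mean-variance trend. Errors are standard errors of this fit, and the small number of arrays limits the precision. Adjusted p-values are Benjamini-Hochberg values over all genes, or over all probe sets where stated. The set comes from the titles, which mark 1 array of each group as the second. Across genes, the difference of second minus first set correlated between groups at 0.71 to 0.85, so arrays of a set deviated together. The fit was run on simulated data with independent noise and planted changes. That check concerned the median estimated size only and set no requirement on calls or false calls.

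Members and gene lists were chosen with earlier results of these data known. Named genes are the members, Egln2, up to 4 genes per pathway list with the smallest adjusted p in a comparison, check and marker genes, and the 5 genes with the highest and the 5 with the lowest correlation with the members' mean profile. The text names some further list members that did not pass, and these were chosen after their values were seen. Alternatives were no set term, the set as a random block, no filter, the mean of a gene's probe sets, no trend, renewed quantile normalization, each genotype alone and each array left out.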

Additional observations from a re-analysis of the deposited data

Results flagged for a closer look

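The response of Mdh2 (probe set 1433984_a_at) was looked at again because both wild-type pairs moved up in hypoxia, by 0.18 and 0.04, and both knockout pairs moved down, by 0.01 and 0.04. The knockout response minus the wild-type response was -0.135, and this interaction did not pass the test (adjusted p = 0.998 over all probe sets in limma). The second Mdh2 probe set, 1416478_a_at, did not show the pattern. Its wild-type pairs moved by -0.11 and -0.06, its knockout pairs by 0 and -0.01, and its interaction was 0.08.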

How the results depend on the processing

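The number of the 9 genes called for hypoxia against normoxia, 5 in wild type, 2 in the knockout and 7 for the genotypes combined, depended on the model. Without the set as a replicate block it was 0, 0 and 0, and as a random block it gave 3, 1 and 4. With the mean of all probe sets of a gene it was 2, 0 and 5, without the trend 1, 0 and 4, and with each genotype fitted alone 0 and 0. Without both first-set wild-type arrays, which was chosen after seeing the data, it was 0, 0 and 3. Renewed quantile normalization gave 5, 2 and 7, and no filter gave 4, 2 and 6. Leaving out 1 array at a time gave 0 to 4, 0 to 3 and 4 to 7 in the same order. Among called values the sign turned for Cs, to 0.000833 over both genotypes with the mean of its probe sets. Of hypoxia responses that were not called, the same setting turned the sign of Cs in knockout (0.025), of Ogdh in wild type (0.145) and of Mdh2 over both genotypes (-0.00125), and Ogdh in wild type was also above 0 without the first-set hypoxic array (0.11) or both first-set wild-type arrays (0.08). For knockout against wild type and for the interaction, 0 of the 9 were called under every alternative named here that could be run.

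Over both genotypes Idh2, Idh3a, Dlst and Suclg1 were called in 8 of the 8 fits without 1 array, Cs in 7, and Idh3b and Fh1 in 1 each.

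Over all genes the calls in wild type were 2237, and 20 without the block, 1133 with a random block, 1473 with mean probe sets, 1342 without the trend, 487 alone, 6 without both first-set wild-type arrays and 490 to 1975 without 1 array. In knockout they were 1380, and 12, 517, 929, 603, 53, 50 and 121 to 1335 in the same order. Over both genotypes they were 3922, and 99, 2845, 3204 and 3287 under the first 4, then 1601 without both arrays and 2554 to 3315. Knockout against wild type called 5 genes of all in normoxia and 4 in hypoxia, and 0 and 0 without the block, with a random block or without both first-set wild-type arrays, 2 and 0 without the trend, and 0 to 3 and 0 to 5 without 1 array. Fits without 1 array assume that a lone array varies like the other groups.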
